A study of Mus musculus with 2 samples.

Results

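The transcripts described here encode Cd44 and 9 integrin subunits (Itga4, Itga5, Itga6, Itgal, Itgam, Itgb1, Itgb2, Itgb3 and Itgb7), receptors with which blood cells and their precursors hold on to matrix and to each other. Members were taken by symbol, either the symbol the array file gives for a spot or the current symbol of its RefSeq identifier, and every probe of each gene was kept. The 10 genes had 24 probes in 42 spots, of 41174 probes and 22010 named genes on the array. A signal well above background, in 1 channel or both and on each array, was found for 18 of the 24 probes, which stood for 9 of the 10 genes, and the 6 other probes are described without a test.

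RNA came from G1E-ER-GATA-1 cells, a mouse erythroid line that lacks GATA-1 and carries a GATA-1 fusion which estradiol switches on. One arm received siRNA against Lmo2 and the other control siRNA, and both arms, on the same GATA-1-null background, were then kept in estradiol for 24 h. Both arms were hybridised together on 2 two-colour Agilent arrays, the LMO2 siRNA arm in Cy3 and the control siRNA arm in Cy5 each time, so a dye effect and the siRNA effect cannot be told apart. The labels number the arrays as replicates 1 and 2 without saying that they hold separate cultures, so the spread between them may be technical. The p-values rest mostly on that spread pooled over all tested probes, and they measure no spread beyond these samples.

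Integrins are pairs of one alpha and one beta subunit that bind matrix proteins or receptors on neighbouring cells, and cytoplasmic proteins such as talin and kindlin switch them between a resting and an active state. Early erythroid cells use the Itga4–Itgb1 pair to bind VCAM1 on macrophages and, with the Itga5–Itgb1 pair, fibronectin. Cd44 is the main receptor for hyaluronan, and its surface level declines as erythroblasts mature, which is why it is used to stage them.

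Lmo2, the targeted transcript, was measured at log2 ratios of -1.82 (replicate 1) and -2.02 (replicate 2), the direction the labels give. All ratios are LMO2 siRNA over control siRNA, so a negative value means less in LMO2 siRNA cells. Between 55.8% and 68.2% of the gene spots on an array were well above background in a channel. The cells are labelled both as erythroid and as embryonic stem cells. All 10 erythroid marker genes on the array passed the filter, with summed processed signals of 574847 and 589879 intensity units in LMO2 siRNA cells against 357378 and 358426 in control siRNA cells, 2 of these genes being saturated. The stem cell markers Nanog, Sox2 and Zfp42 were not above background, and the 5 stem cell markers that passed summed to 443 and 431 units in LMO2 siRNA cells against 400.3 and 375.5 in control siRNA cells.

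Of the 18 member probes, limma called 7 higher, 2 lower and 9 neither (threshold 0.05 on p-values adjusted over all 24737 probes past the filter). Over all probes 21.6% were called higher and 24.4% lower, so calls as such were common on these arrays. The median log2 ratio of the member probes was -0.00031 and that of all probes -0.01. Fold changes of 2 or more on both arrays were rare, at 0.716% of probes higher and 0.0485% lower, and 1 member probe, that of Itgb7, met this. A stricter rule asked for the same call in 3 sets of values, namely these, the position-corrected ones and the scanner's processed signals. By it 0.449% of probes were called higher and 0.0647% lower, and 0 member probes were. In each of the first and the last set 9 member probes had an unadjusted p under 0.05. The share of all probes under that level was not counted, so this number does not set the members apart. No member probe was saturated. In these RNA extracts fewer cells of a type and less RNA per cell cannot be told apart.

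**Figure D1:**
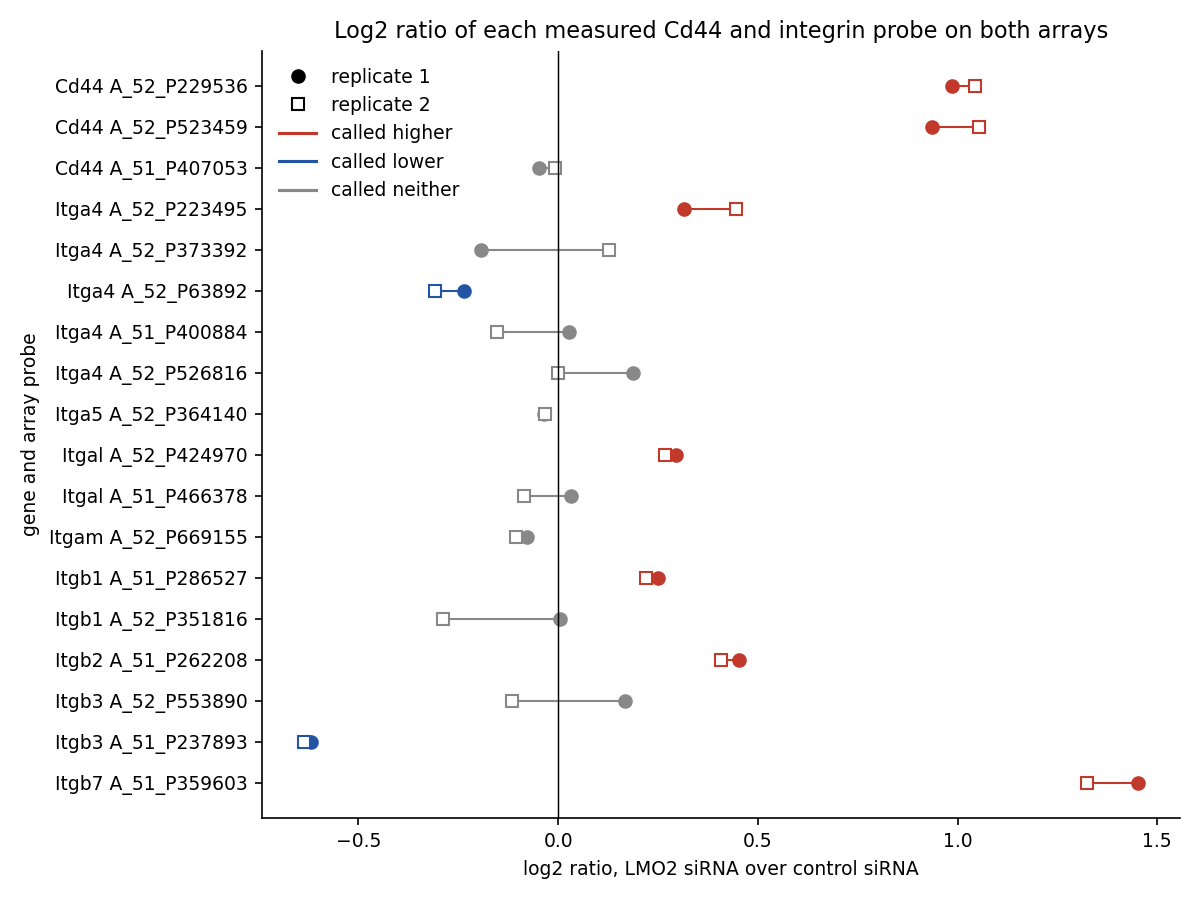
Normalized log2 ratio of LMO2 siRNA over control siRNA for the 18 member probes past the filter, with 1 point per array and a line joining both arrays, coloured by the limma call at an adjusted p of 0.05. The Itgb7 probe and 2 of the 3 Cd44 probes lie farthest to the right, and 1 of the 2 Itgb3 probes lies farthest to the left.

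Cd44, the hyaluronan receptor, was measured by 3 probes, and their ratios split into a high pair and 1 near 0. The opening 30 of the 60 bases of each are printed because these probes gave such different values, and no 2 probes of any member share a run of more than 8 bases.
Cd44 A_52_P229536: cactgggatcttatcatcagataagcaggt
Cd44 A_52_P523459: gccaattgcttaggtatgtacaatgagttt
Cd44 A_51_P407053: tcatagtacaacccttcagcctactgcagc

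The probe A_52_P229536 read 978 and 973 intensity units in LMO2 siRNA cells against 868 and 816 in control siRNA cells, before normalization. The LMO2 siRNA channel was the higher on both arrays, whereas the control channel was the brighter for every member probe other than these 2 and that of Itgb7. After normalization the log2 ratio was 0.99 and 1.04 on the arrays, with a mean of 1.02 ± 0.04 (SD, n = 2), that is 2.02-fold higher (adjusted p = 8.41e-10). The probe A_52_P523459, printed in 10 spots, read 707 and 723 units in LMO2 siRNA cells against 641 and 594 in control siRNA cells. Its log2 ratio was 0.94 and 1.05 on the arrays (mean 0.995 ± 0.083, SD, n = 2), 1.99-fold higher (adjusted p = 1.42e-09), so 2 probes with different sequences gave nearly the same ratio. The third probe, A_51_P407053, read 58.9 and 51.4 units in LMO2 siRNA cells against 83.5 and 62.3 in control siRNA cells, and its LMO2 siRNA channel was well above background on 1 of the 2 arrays. Its log2 ratio of -0.03 ± 0.03 (SD, n = 2) was not called (adjusted p = 0.73), and it lies close to the floor of the measurement in both arms.

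**Figure D2:**
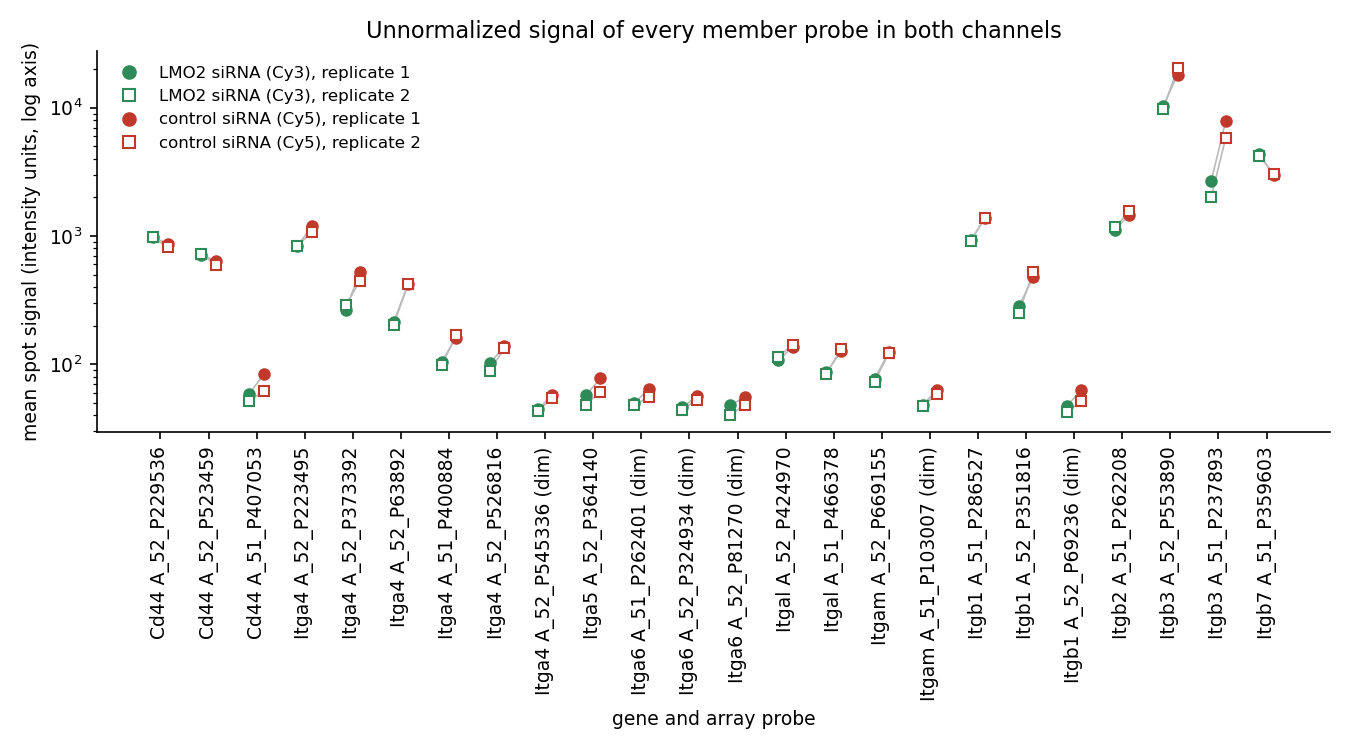
Mean spot signal before normalization, in intensity units on a log axis, for all 24 member probes, with LMO2 siRNA (Cy3) left of control siRNA (Cy5) and 1 symbol per array. Lines fall from left to right for 2 Cd44 probes and for Itgb7 alone; signals of different probes are not comparable with each other, and the 6 probes marked dim were below the filter.

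Itgb7, the beta subunit that pairs with Itga4 to bind MADCAM1 in gut-homing lymphocytes, had the highest ratio of all member probes. Its only probe is A_51_P359603, whose opening bases are given to identify it.
Itgb7 A_51_P359603: atttttcagagtgaccttcagagggcagca

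The probe read 4344 and 4176 intensity units in LMO2 siRNA cells against 2973 and 3062 in control siRNA cells. These are readings before normalization, and the LMO2 siRNA channel was the brighter on both arrays. The log2 ratio was 1.45 and 1.32 on the arrays, a mean of 1.39 ± 0.09 (SD, n = 2), or 2.62-fold higher (adjusted p = 5.18e-11). Mast cell and basophil markers, whose cells also carry Cd44 and Itgb7, summed to 1901 and 2048 units over 5 measured genes in LMO2 siRNA cells against 836 and 916 in control siRNA cells. Mcpt8 and Ms4a2 of that list were not above background. Of the 5, 2 were called higher (Hdc at a log2 ratio of 1.22 and Cpa3 at 0.37) and none lower. Over all genes, taken by their brightest probe, 23.1% were called higher and 25.6% lower. The part of these markers in the Cd44 and Itgb7 ratios was not tested.

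Cd44 and Itgb7 have the highest ratios among the members, and the sequence before their start sites is shown for that reason. RefSeq promoter windows of the GRCm38.p6 table were at hand for 6 of the 10 members (Cd44, Itga4, Itga5, Itgam, Itgb1 and Itgb7). The 250 bases before each start were searched on both strands for the GATA motif AGATAA, for its form with G at the end (AGATAG), for both forms with T at the front (TGATAA or, with G at the end, TGATAG) and for the E-box CANNTG, the motif types bound by GATA factors and by the TAL1-containing complex in which LMO2 sits. Matches are in capitals in the runs below. Coordinates are of GRCm38.p6. The Cd44 run is chr2:102901670-102901915 on the minus strand, and the Itgb7 run is the 30 bases around its GATA match at chr15:102231982-102232011 on the minus strand, a window that lies inside the annotated span of the gene before the start used in the table.
Cd44: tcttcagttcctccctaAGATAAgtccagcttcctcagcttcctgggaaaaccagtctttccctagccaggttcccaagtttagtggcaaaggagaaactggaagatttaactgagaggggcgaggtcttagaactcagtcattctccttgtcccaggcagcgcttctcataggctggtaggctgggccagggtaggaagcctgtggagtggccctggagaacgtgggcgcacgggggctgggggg
Itgb7: cccagcccactcCTATCTgctccaccttct

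The Cd44 window held 1 GATA match, at -233 from the start, and no E-box. The Itgb7 window held 1 GATA match at -64, written CTATCT on this strand, and 1 E-box at -197. The other 4 windows held no GATA match, and 3 of them, those of Itga4, Itga5 and Itgam, held 1 E-box each. Over all 32851 windows of this length, 26.5% hold such a GATA motif and 66.2% an E-box, so a match is a description of these letters and not a binding site.

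Itga4, the alpha subunit that pairs with Itgb1 and Itgb7, was covered by 6 probes that did not move together. The probe with the strongest signal, A_52_P223495, read 835 and 839 units in LMO2 siRNA cells against 1189 and 1073 in control siRNA cells. Its normalized log2 ratio was 0.38 ± 0.09 (SD, n = 2; adjusted p = 6.31e-05), 1.30-fold higher, and it turned to -0.19 when arrays were centred on their median in place of loess. The probe A_52_P63892 read 212 and 203 units in LMO2 siRNA cells against 423 and 419 in control siRNA cells, with a log2 ratio of -0.27 ± 0.05 (SD, n = 2; adjusted p = 0.00101). Thus 1 Itga4 probe was called higher and 1 lower on the same arrays. The probes A_52_P373392, A_51_P400884 and A_52_P526816 had mean log2 ratios of -0.03, -0.06 and 0.09, each with opposite signs on the arrays, and were not called. The sixth, A_52_P545336, was not well above background in either channel. The array file describes 3 of the 6 (A_52_P373392, A_52_P526816 and A_52_P545336) as cDNA clones, and the 2 called probes as the RefSeq transcript.
Itga4 A_52_P223495: aacttcttcaagctgatatgggcgttgaga
Itga4 A_52_P63892: ccttttactctgcagataggaactgtaaaa

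Itgb1, the beta subunit shared by the fibronectin, laminin and VCAM1 receptors, was measured by the probe A_51_P286527 in 10 spots. It read 922 and 910 units in LMO2 siRNA cells against 1390 and 1391 in control siRNA cells. The normalized log2 ratio was 0.25 and 0.22 on the arrays, with a mean of 0.23 ± 0.02 (SD, n = 2; adjusted p = 0.00292), and it was -0.35 with median centring, the same as the median of all probes there. The probe A_52_P351816 read 283 and 252 units in LMO2 siRNA cells against 476 and 524 in control siRNA cells, and its log2 ratios of 0.01 and -0.29 gave no call (adjusted p = 0.102). A probe that the array file describes as a partial coding sequence of the beta1D form, the splice form of muscle, was not well above background in either channel on either array. Itga5, which joins Itgb1 in the fibronectin receptor, was near the floor at 57.5 and 48.4 units in LMO2 siRNA cells against 77.2 and 60.9 in control siRNA cells. Its log2 ratio was -0.04 ± 0.0022 (SD, n = 2; adjusted p = 0.656), and its LMO2 siRNA channel was well above background on 1 of the 2 arrays. Itga6, which joins Itgb1 in a laminin receptor, had 3 probes, and none was well above background in any channel.

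Itgb2, the beta subunit of the leukocyte integrins, read 1117 and 1167 units in LMO2 siRNA cells against 1465 and 1564 in control siRNA cells. Its normalized log2 ratio was 0.45 and 0.41 on the arrays, a mean of 0.43 ± 0.03 (SD, n = 2; adjusted p = 1.31e-05) or 1.35-fold higher, and it turned to -0.16 with median centring. Itgal, the alpha subunit that joins Itgb2 to bind ICAM proteins, had 2 probes, 1 of them called. The probe A_52_P424970 read 107 and 115 units in LMO2 siRNA cells against 136 and 142 in control siRNA cells, with a log2 ratio of 0.28 ± 0.02 (SD, n = 2; adjusted p = 6.81e-04). The probe A_51_P466378 read 86.4 and 83.9 units in LMO2 siRNA cells against 125 and 131 in control siRNA cells, with a log2 ratio of -0.03 ± 0.08 (SD, n = 2; adjusted p = 0.749). Itgam, the alpha subunit that joins Itgb2 on myeloid cells, had a log2 ratio of -0.09 ± 0.02 (SD, n = 2; adjusted p = 0.205) by A_52_P669155, and its other probe was not well above background. The granulocyte and macrophage markers Adgre1, Csf3r, Elane and S100a8 were likewise not above background, and the 6 markers of that list that passed summed to 529 and 610 units in LMO2 siRNA cells against 467 and 553 in control siRNA cells. Of those 6, 2 were called higher and none lower, beside 23.1% and 25.6% of all genes. The part of these markers in the Itgb2 and Itgal ratios was not tested.

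Itgb3, the beta subunit that joins Itgav or the platelet subunit Itga2b, gave the lowest ratio of the set and 1 close to 0. Its 2 probes share no run longer than 5 bases, and their opening bases are given because they differ in result.
Itgb3 A_51_P237893: tgggactctctgccattatgtttacagagg
Itgb3 A_52_P553890: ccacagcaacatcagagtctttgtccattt

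The probe A_51_P237893, described in the array file by an Itgb3 mRNA record and not by RefSeq, read 2680 and 2013 units in LMO2 siRNA cells against 7838 and 5784 in control siRNA cells. Its log2 ratio was -0.62 and -0.64 on the arrays, a mean of -0.63 ± 0.01 (SD, n = 2; adjusted p = 2.41e-07), 1.54-fold lower. The RefSeq probe A_52_P553890 read 10231 and 9737 units in LMO2 siRNA cells against 18046 and 20368 in control siRNA cells. The arrays gave opposite signs, with log2 ratios of 0.17 and -0.12 (mean 0.03 ± 0.20, SD, n = 2; adjusted p = 0.787). With median centring it was -0.71, against -1.30 for the first probe, so A_51_P237893 had the lower ratio in those values too. Itgav, a partner of Itgb3, had a log2 ratio of 0.15 ± 0.09 by its brightest probe, and Itga2b, the platelet partner, 0.12 ± 0.02 (SD, n = 2), and neither of these probes was called. With position correction both were called higher, at 0.21 for Itgav (adjusted p = 0.0158) and 0.31 for Itga2b (adjusted p = 0.00192). The Itgav probe A_52_P86872 was called higher at 0.26 (adjusted p = 0.00125), but not with position correction (0.05). The Itgav probe A_51_P498205 was at 0.01 and not called. Of 7 megakaryocyte markers that passed, Itga2b among them, 2 were called higher and 1 lower, beside 23.1% and 25.6% of all genes. By their brightest probes Gp1ba (1.18) and Gp5 (0.62) were called higher and Gp9 (-0.31) lower, while Pf4 (-0.13) was not called. Gp5 was called higher in all 3 sets of values, as were 0.531% of genes. The 7 markers summed to 5231 and 5657 units in LMO2 siRNA cells against 3778 and 3671 in control siRNA cells. The part of these markers in the Itgb3 ratios was not tested.

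Ratios on these arrays drifted with the row in which a spot lies, and the members printed in 10 spots show it directly. For Cd44 A_52_P523459 the log2 ratio over its 10 spots in rows 51 to 469 ran between 0.69 and 1.15 on replicate 1 (SD 0.17 over spots), and between 0.77 and 1.24 on replicate 2. All 10 spots were above 0 on both arrays, the lower ones in the low rows. After division by the scanner's own position factor for each channel, the spots ran between 0.89 and 0.96 on replicate 1 (SD 0.019) and between 0.95 and 1.11 on replicate 2. For Itgb1 A_51_P286527 the 10 spots ran between -0.02 and 0.53 on replicate 1, and between -0.08 and 0.49 on replicate 2, so 9 of 10 and 8 of 10 were above 0. With the position correction all 10 were above 0 on both arrays, between 0.24 and 0.33 on replicate 1 and between 0.19 and 0.34 on replicate 2. Spots of 1 probe share their RNA and are not replicates of a condition.

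**Figure D3:**
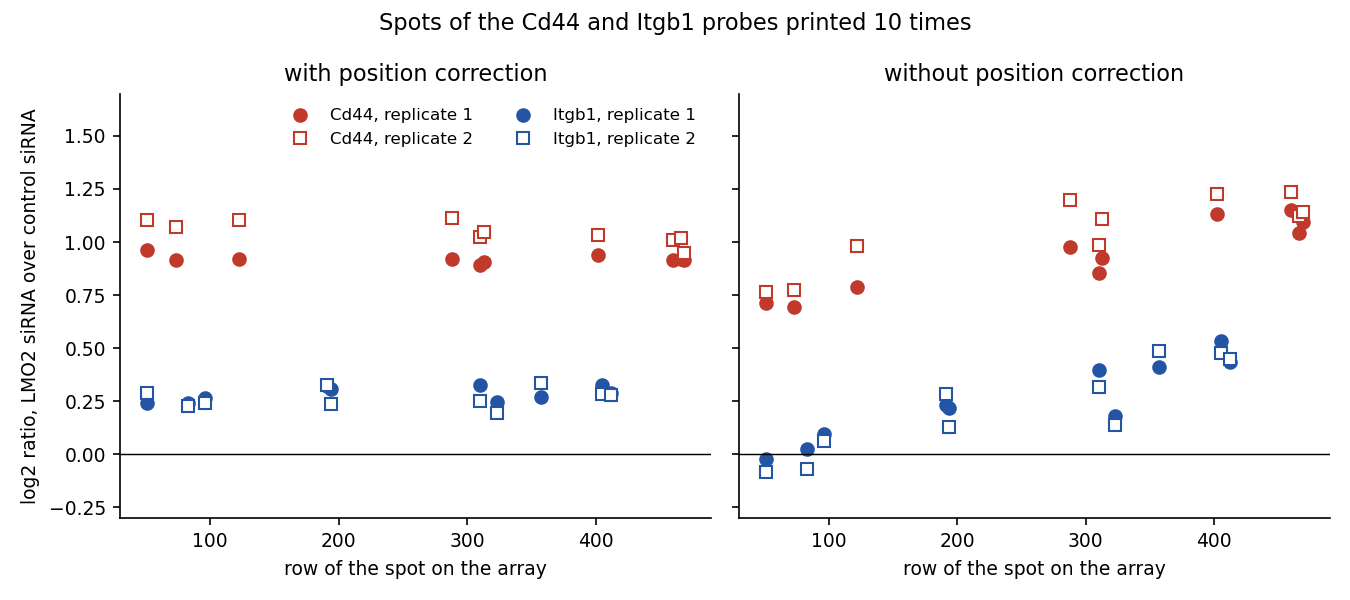
Log2 ratio of LMO2 siRNA over control siRNA at each of the 10 spots of Cd44 A_52_P523459 and Itgb1 A_51_P286527, against the row of the spot on the array, with the position correction on the left and without it on the right. Without it the ratios climb with the row, to 1.24 for Cd44 and 0.53 for Itgb1, and with it each probe keeps a narrow band on each array.

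The same correction moved the member probes in single spots by their place on the array. Of 16 such probes, 4 lay in rows under 100, and all 4 had a higher ratio with the correction. Itgal A_51_P466378, in row 17, turned to 0.34 (adjusted p = 0.00102), and Cd44 A_51_P407053, in row 58, to 0.23 (adjusted p = 0.0107). Itgb3 A_52_P553890, in row 75, had 0.30 (adjusted p = 0.00541), and Itgb1 A_52_P351816, in row 65, had 0.13 (adjusted p = 0.136). At the other end of the array Cd44 A_52_P229536, in row 513, had 0.81 (adjusted p = 2.70e-06), and Itgb3 A_51_P237893, in row 431, had -0.81 (adjusted p = 2.19e-06). With the correction 10 member probes were called higher, where 20.9% of all probes were, and 1 lower, where 18% of all were. The Itga4 probe A_52_P63892 lost its call (-0.13, adjusted p = 0.0991). The median log2 ratio of member probes was then 0.25, against -0.01 for all probes.

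The scanner's processed signals gave ratios of the same sign for the highest and lowest members, not all close in size, and no call. Itgb7 had a log2 ratio of 1.47 (adjusted p = 0.0512), the Cd44 probes A_52_P523459 and A_52_P229536 had 1.02 (adjusted p = 0.0512) and 0.79 (adjusted p = 0.0530), and Itgb3 A_51_P237893 had -0.89 (adjusted p = 0.0517). In these values 0.509% of all probes were called higher and 0.0970% lower, so calls were rare throughout. An unadjusted p under 0.05 was found for 9 member probes, and the share of all probes under that level was not counted. The median log2 ratio of member probes was 0.18 there, against -0.09 for all probes. With 1 probe per gene in the fit, which tests 14316 genes, Itgb7 (adjusted p = 0.0302), Cd44 (0.0319) and Itgal by A_52_P424970 (0.0456) were called higher in processed signals too, where 5.27% of genes were called higher and 4% lower. In that fit on the main values 6 of the 9 member genes were called higher and 0 lower, beside 24.5% and 27.4% of all genes. The fit keeps only the brightest probe of a gene. The member probes called lower with all probes in the fit, Itgb3 A_51_P237893 and Itga4 A_52_P63892, are not the brightest. They were therefore not tested there, and the 0 does not cover them. The 3 genes Itgb7, Cd44 and Itgal were called higher in all 3 sets of values, as were 4.17% of genes, and 0 members were called lower in all 3, as were 2.79% of genes.

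Median centring shifted the median of all tested probes to a log2 ratio of -0.35. Relative to that shift Itgb7 stood at 1.08 and the called Cd44 probes at 0.80 and 0.82. Itgal A_52_P424970 stood at 0.39, Itgb2 at 0.19, Itga4 A_52_P223495 at 0.16 and Itgb1 A_51_P286527 at 0.01. The uncalled probes near the floor, Itga5 and Cd44 A_51_P407053, stood at 0.38 and 0.36, so the Itgal value does not set that probe apart. Without subtracting the shift, Itgal A_52_P424970 had 0.04 and was not called (adjusted p = 0.776). The Itgb3 probes stood at -0.94 and -0.36. In these values 3 member probes were called higher, where 2.51% of all probes were, and 8 lower, where 60.8% of all were.

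**Figure D4:**
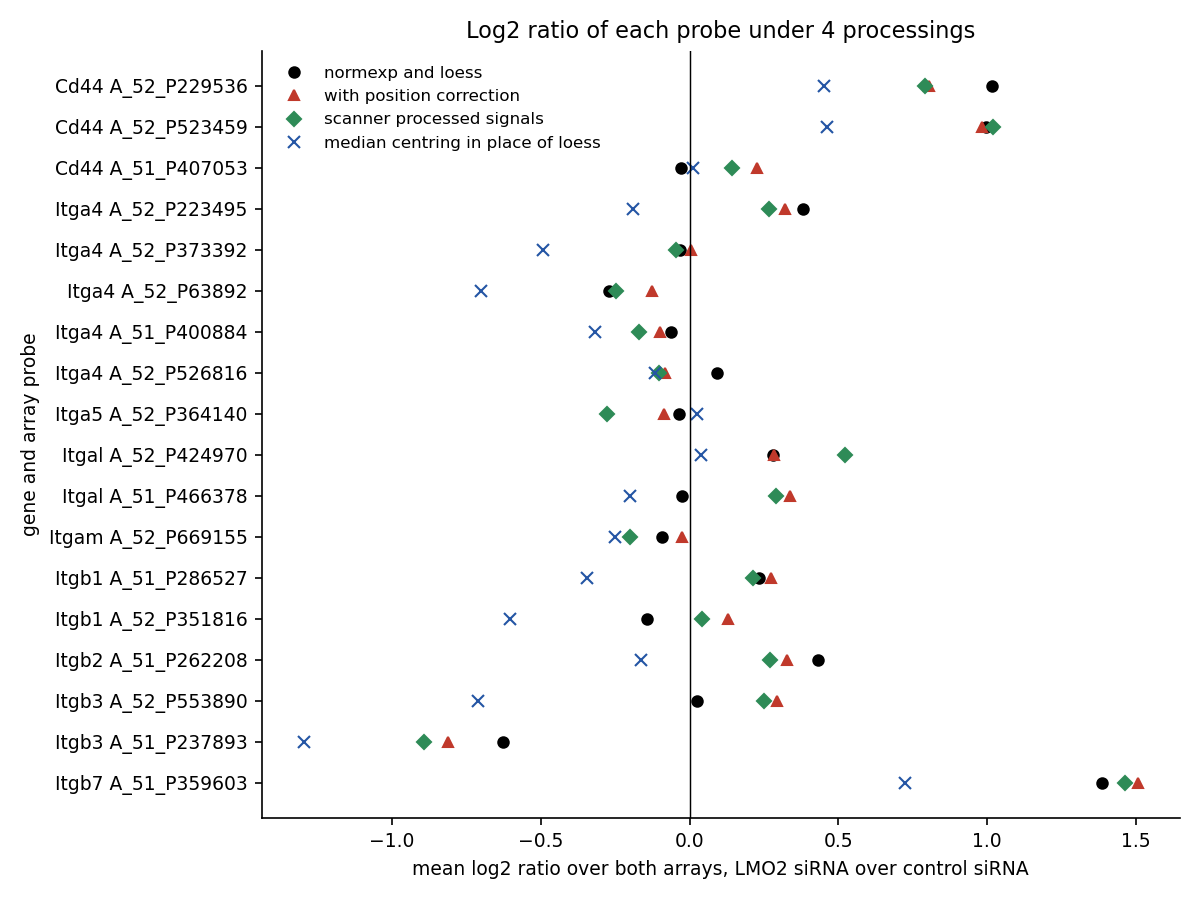
Mean log2 ratio of LMO2 siRNA over control siRNA over both arrays for the 18 member probes past the filter, under 4 ways of processing (1 symbol each). Itgb7 and 2 Cd44 probes lie right of 0 and Itgb3 A_51_P237893 left of 0 under all 4, while the called Itga4, Itgb1 and Itgb2 probes with positive ratios cross 0 under median centring.

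The genes nearest to Cd44 by their 6 log2 ratios (2 arrays in each of 3 sets of values, brightest unsaturated probe, Euclidean distance) were Tctex1d2 at 0.133, Ctsl at 0.136, Mboat7 at 0.136, Arl1 at 0.137 and Crip1 at 0.153. Ctsl encodes a lysosomal protease and Arl1 a small GTPase of the Golgi. Their mean log2 ratios lay between 0.92 and 1.04, beside 1.02 for Cd44. Likeness over 2 arrays is a description of these ratios.

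Other genes of integrin and Cd44 biology were counted by their brightest probe (values are means ± SD over the arrays, n = 2), with 23.1% of all genes called higher and 25.6% lower. By the rule of the same call in 3 sets of values 0.531% of genes were called higher and 0.0699% lower, and no gene of the integrin and Cd44 lists was. Genes named from these lists were therefore chosen after their values were seen. Of 10 other integrin subunits above background, none was called higher and 2 were called lower, Itga7 (-0.37 ± 0.03) and Itgb8 (-0.16 ± 0.04), and the list's median log2 ratio was -0.04 beside -0.02 for all genes. With position correction Itga7 had -0.02 (adjusted p = 0.820) and Itgb8 -0.18 (adjusted p = 0.0293). Called higher with that correction were Itga1 (0.29, adjusted p = 0.00239), Itga2b (0.31, adjusted p = 0.00192), Itgb4 (0.24, adjusted p = 0.0241) and Itgav (0.21, adjusted p = 0.0158). Over all probes 20.9% were called higher with it, so the lack of higher calls in this list depends on the values used.

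The list of proteins that activate integrins or build adhesion sites had 22 measured members, of which 8 were called higher and 5 lower. Ptk2b, an adhesion kinase of blood cells, had a log2 ratio of 0.60 ± 0.02, and Ilk, a pseudokinase at the beta tail, had 0.50 ± 0.02 (SD, n = 2). Zyx, the adhesion protein zyxin, had 0.39 ± 0.05, and Tln1, which encodes talin, 0.29 ± 0.03 by its brightest probe. The other Tln1 probes disagreed, with 0.37 called higher and -0.10 not called. Ptk2, the ubiquitous relative of Ptk2b, had a called log2 ratio of -0.45 ± 0.18 by its brightest probe and uncalled ratios of -0.05 and -0.07 by its other probes. With position correction its brightest probe had -0.16 and lost the call (adjusted p = 0.0628). The adaptor Crk was lower at -0.48 ± 0.04 by its brightest probe, and its other probe was at -0.04, not called. With median centring Ptk2b (0.03) stayed above 0, Ilk (-0.12), Zyx (-0.31) and Tln1 (-0.41) did not, and 5 of the 8 lay above the shifted median of all probes. The list's median log2 ratio was 0.03 without that change. Of 7 proteins that hold integrins inactive or turn off Rap1, 2 were called higher and 2 lower. Flna, which encodes the actin crosslinker filamin A, was higher at 0.71 ± 0.07 by its brightest probe and stayed above 0 with median centring. Its other probes disagreed, with 0.41 called higher and -0.06 not called. Rap1gap, which switches Rap1 off, was lower at -0.88 ± 0.03.

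Among 8 measured ligands and counter-receptors, 4 were called higher and 2 lower, and the list's median was 0.20. Icam4, a red cell ligand of several integrins, had 0.79 ± 0.07, Icam1 had 0.40 ± 0.05 and the laminin chain Lamc1 had 0.37 ± 0.06, while the laminin chain Lama5 was lower at -0.80 ± 0.14. With median centring Icam4 had 0.11, Icam1 -0.08 and Lamc1 -0.31, and all 4 genes called higher lay above the shifted median of all probes. Vcam1, the ligand of the Itga4 pairs, was not above background, nor were Spp1, Vtn or the fibrinogen chains Fga, Fgb and Fgg. Of 12 measured genes of hyaluronan turnover and Cd44 partners, 1 was called higher and 5 lower. The list's median log2 ratio was -0.10, and -0.04 with position correction. Among those called lower were Hyal2 (-0.47), Hmmr (-0.36) and Nf2 (-0.32). Msn, which encodes moesin, a linker of Cd44 to actin, was higher at 0.69 ± 0.09 and stayed above 0 with median centring. With position correction Msn had 1.02 (adjusted p = 4.20e-07). Its relative Ezr was lower at -0.15 ± 0.06. The 2 tested probes of Rdx, another relative, were called in opposite directions. The brighter probe had -0.39 ± 0.12, and -0.03 with position correction, which was not called. The dimmer probe A_52_P571684 had 0.26 ± 0.01 (adjusted p = 0.00132), and 0.32 with position correction (adjusted p = 0.00138).

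Of 8 tetraspanins and integrin-associated proteins above background, 4 were called higher and none lower, with Cd37, a leukocyte tetraspanin, at 0.44 ± 0.08. Of 6 other adhesion receptors of blood cells, 3 were called higher and none lower. Called higher were the sialomucins Cd164 (0.64 ± 0.14) and Spn (0.44 ± 0.01) and the selectin ligand Selplg (0.61 ± 0.00097), of which Selplg stayed above 0 with median centring, and all 3 lay above the shifted median of all probes. The other probes of Cd164 were at -0.02 and 0.07, neither called. The 5 measured lymphocyte markers summed to 631 and 520 units in LMO2 siRNA cells against 840 and 640 in control siRNA cells, with none called higher and 2 called lower, Cd3e at -0.34 and Dntt at -0.23.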

How the data were processed

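Total RNA of the LMO2 siRNA (Cy3) and control siRNA (Cy5) arms was hybridised together on 2 arrays, per the labels. The authors' scanner files, made with Agilent Feature Extraction 9.1.3.1 per the file headers, give the intensity of each spot in both channels (mean, local background, processed), with a position ratio for each channel from a polynomial of degree 4. The scanner's log10 ratios, as deposited, put red over green, and the series table holds the same values within 0.005, with a median of 0 on both arrays. No source used here gives the genome build behind the probes, and names came through a GRCm38.p6 gene table (24844 of 41174 probes, 9636 more by the array file and 6694 without a symbol).

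Mean signals were corrected with normexp (offset 50) and normalized by loess within each array in limma 3.58.1 (R 4.3.3), with the 1639 control spots at weight 0 and then left out. Log2 ratios were given the direction LMO2 siRNA over control siRNA, spots of 1 probe were averaged, and all 24737 probes with at least 1 channel well above background on both arrays were tested with lmFit and eBayes, with Benjamini-Hochberg adjustment at 0.05. Prior degrees of freedom were 15 against 1 residual, so p-values rest mostly on variance pooled over probes. They were 9.68 for position-corrected and 2.22 for processed signals. The number of arrays limits the precision, no depth applies, and both arrays lie on 1 slide and scan, which therefore could not be tested as batches.

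For the position correction, each channel's normexp signals were divided by its position ratio and then normalized by loess. Other alternatives covered background offset, normalization, filters, flagged and saturated spots, the variance prior, a 1.5-fold threshold, 1 probe per gene, a separate-channel fit, the series table and each array alone. The members and gene lists were chosen with earlier results of these data known. The rule for named genes took all member probes, Lmo2, the 5 genes nearest to Cd44, and list genes called in all 3 sets of values (main, position-corrected, processed), of which the integrin and Cd44 lists held none. Genes named from those lists, and markers named with a ratio other than Gp5, fall outside it and were chosen after their values were seen. The code of the fit was run on simulated ratios without row drift or a dye effect, so that run does not cover either.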

Additional observations from a re-analysis of the deposited data

How the results depend on the processing

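The probe-level counts depended on the values used. Member probes called higher numbered 7, and 0 in scanner processed signals, 3 with median centring, 3 in the series table and 3 against a 1.5-fold threshold. Those called lower numbered 2, and 1 with position correction, 0 in processed signals, 8 with median centring, 1 in the series table, 0 against the 1.5-fold threshold and 0 with 1 probe per gene. The 2 probes called lower are not the brightest of their genes and were left out of the fit with 1 probe per gene. Their calls could not recur there, so that 0 does not show a dependence on the values. In the order processed signals, median centring, series table and 1.5-fold threshold, all probes called higher numbered 126, 621, 788 and 337 in place of 5338, and lower 24, 15049, 259 and 64 in place of 6029. Genes called higher were 87, 404, 550 and 262 in place of 3300, and lower 14, 9190, 141 and 35 in place of 3663. With 1 probe per gene, 14316 tests gave 3509 higher and 3923 lower, and 3 member probes were called higher in all 3 sets of values in place of 0. The signs of 3 called member probes turned, all with median centring, Itga4 A_52_P223495 (-0.19), Itgb1 A_51_P286527 (-0.35) and Itgb2 A_51_P262208 (-0.16), where the median of all probes was -0.35. Among probes not called, signs also turned there for Itgb3 A_52_P553890 (-0.71), Itga4 A_52_P526816 (-0.12), Itga5 (0.024) and Cd44 A_51_P407053 (0.012). With position correction they turned for Cd44 A_51_P407053 (0.23), Itgal A_51_P466378 (0.34), Itgb1 A_52_P351816 (0.13), Itga4 A_52_P526816 (-0.081) and Itga4 A_52_P373392 (0.0039). In processed signals they turned for Cd44 A_51_P407053 (0.14), Itgal A_51_P466378 (0.29), Itgb1 A_52_P351816 (0.043) and Itga4 A_52_P526816 (-0.10), and in the series table for these 4 (0.20, 0.35, 0.10 and -0.041) and Itga4 A_52_P373392 (0.017). The causes were not tested. Of 259 member probe values under the alternatives, 175 kept sign and call, 22 kept the sign and lost the call, 5 kept the sign and gained one, and 27 turned sign, 6 of them from 1 array alone. The other 30, each from 1 array alone, kept the sign with no test. Member probes with a mean ratio of 2-fold or more higher numbered 2, 3 without replicate 1 and 1 without replicate 2, where no residual degrees of freedom are left for a test. No paired analysis was possible because each ratio already pairs both arms within an array and there is 1 group of ratios. Probes near background, such as Itga5 and Cd44 A_51_P407053, have little signal to show a difference.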
